A study of Mus musculus with 6 samples.

Results

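The genes described here are the cyclins and cyclin-dependent kinases (CDKs) that drive cells through G1, the phase before DNA synthesis, with the CDK inhibitor Cdkn1b and the retinoblastoma gene Rb1. They were chosen by name: Ccnd1, Ccnd2, Ccnd3, Ccne1, Ccne2, Cdk2, Cdk4, Cdk6, Cdkn1b and Rb1. Each matched 1 row of the deposited table, so there were 10 genes of 53715 in all. RNA was sequenced from an immortalized line of mouse podocytes, the epithelial cells that cover the capillaries of the kidney filter, after transfection with an siRNA against Tfeb (3 libraries, labelled TFEB knockdown) or with a scrambled siRNA (3 libraries, labelled WT). TFEB is a transcription factor known for activating lysosome and autophagy genes, and the design asks which transcripts differ when it is reduced. The line was expanded at 33 °C in medium with 10% fetal bovine serum and interferon gamma, and the differentiation medium at 37 °C held 5% serum and type I collagen, for 10 to 14 days. Lines that grow under interferon gamma at this lower temperature commonly carry a temperature-sensitive SV40 large T antigen, a viral protein that binds the retinoblastoma protein; the labels do not say how the line was immortalized.

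In G1, mitogens raise the D-type cyclins, which pair with CDK4 or CDK6 and begin to phosphorylate the retinoblastoma protein RB1. RB1 holds back the E2F transcription factors, and its phosphorylation lets them switch on cyclin E and the genes of DNA synthesis; cyclin E with CDK2 then completes the step. CDKN1B, also called p27, binds and inhibits cyclin E and CDK2 complexes. Mature podocytes in the kidney are known as cells that have left the cell cycle and hold high p27.

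The libraries held 18062898 to 20610888 reads as derived from the table, and each of the 10 genes had at least 299 reads in each library. Values are FPKM, which divide a gene's fragments by its length and by a depth set for each library, so levels of different genes can be set side by side. This depth was not the library's total of derived reads, as described under processing. Tfeb averaged 0.725 ± 0.0916 FPKM in Tfeb siRNA libraries and 2.04 ± 0.233 FPKM in scrambled siRNA libraries (SD, n = 3 each), or 35.5% of the scrambled level. Of 10 podocyte markers, 5 had a mean under 1 FPKM, among them the slit diaphragm gene Nphs1 and Wt1, Ptpro and Tcf21. Among the other 5, Podxl rose and Synpo fell. The summed level of the 10 was 261 to 263 FPKM in Tfeb siRNA libraries and 274 to 294 FPKM in scrambled siRNA libraries. Of 5 markers of kidney tubule epithelium, 3 (Lrp2, Aqp1 and Cdh16) were above 42 FPKM in every library while Umod was at 0, and the list summed to 235 to 273 FPKM in Tfeb siRNA libraries and 227 to 289 FPKM in scrambled siRNA libraries. All 5 endothelial markers had a mean under 1 FPKM (summed 0.351 to 0.476 FPKM in Tfeb siRNA libraries and 0.340 to 0.575 FPKM in scrambled siRNA libraries, with Emcn at 0). Of 4 leukocyte markers only Cd68 had a mean of 1 FPKM or more and Cd3e was at 0 (summed 3.77 to 5.16 FPKM in Tfeb siRNA libraries and 4.89 to 6.74 FPKM in scrambled siRNA libraries), and of 6 mesangial or fibroblast markers only Pdgfrb and Col1a1 had a mean of 1 FPKM or more. Col1a1 rose, while Pdgfrb averaged 31.7 FPKM in Tfeb siRNA libraries and 31.9 FPKM in scrambled siRNA libraries. Des went the other way, with 0.503 FPKM in Tfeb siRNA libraries and 1.42 FPKM in scrambled siRNA libraries, and its groups did not overlap. The summed mesangial and fibroblast list was 39.1 to 40.8 FPKM in Tfeb siRNA libraries and 34.8 to 37.2 FPKM in scrambled siRNA libraries. The part of such differences in the results that follow was not tested, and in bulk RNA fewer cells of a type and less RNA per cell cannot be told apart.

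All 3 D-type cyclins, cyclin E1 and Rb1 were lower after Tfeb siRNA, by 16.7% to 24.1%, while cyclin E2, the 3 CDKs and Cdkn1b did not pass the test. Of the 10 genes 5 fell, 0 rose and 5 did not pass limma's test at an adjusted p below 0.05. Among all 12257 tested genes 16.4% were called lower and 16.9% higher, or 33.3% in either direction. At an unadjusted p below 0.05, 1 of the 10 genes was higher and 6 were lower. The share of all tested genes at that level was not computed, here or for the lists below. Limma's voom model of the derived reads called 0 of the 10 genes higher and 5 lower. Voom called 2308 higher and 2208 lower among all 12257 tested genes. The median log2 fold change was -0.20 over the 10 genes and 0.02 over all tested genes. The median size of the log2 fold change was 0.29 among the 5 called genes and 0.39 among all called genes.

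**Figure D1:**
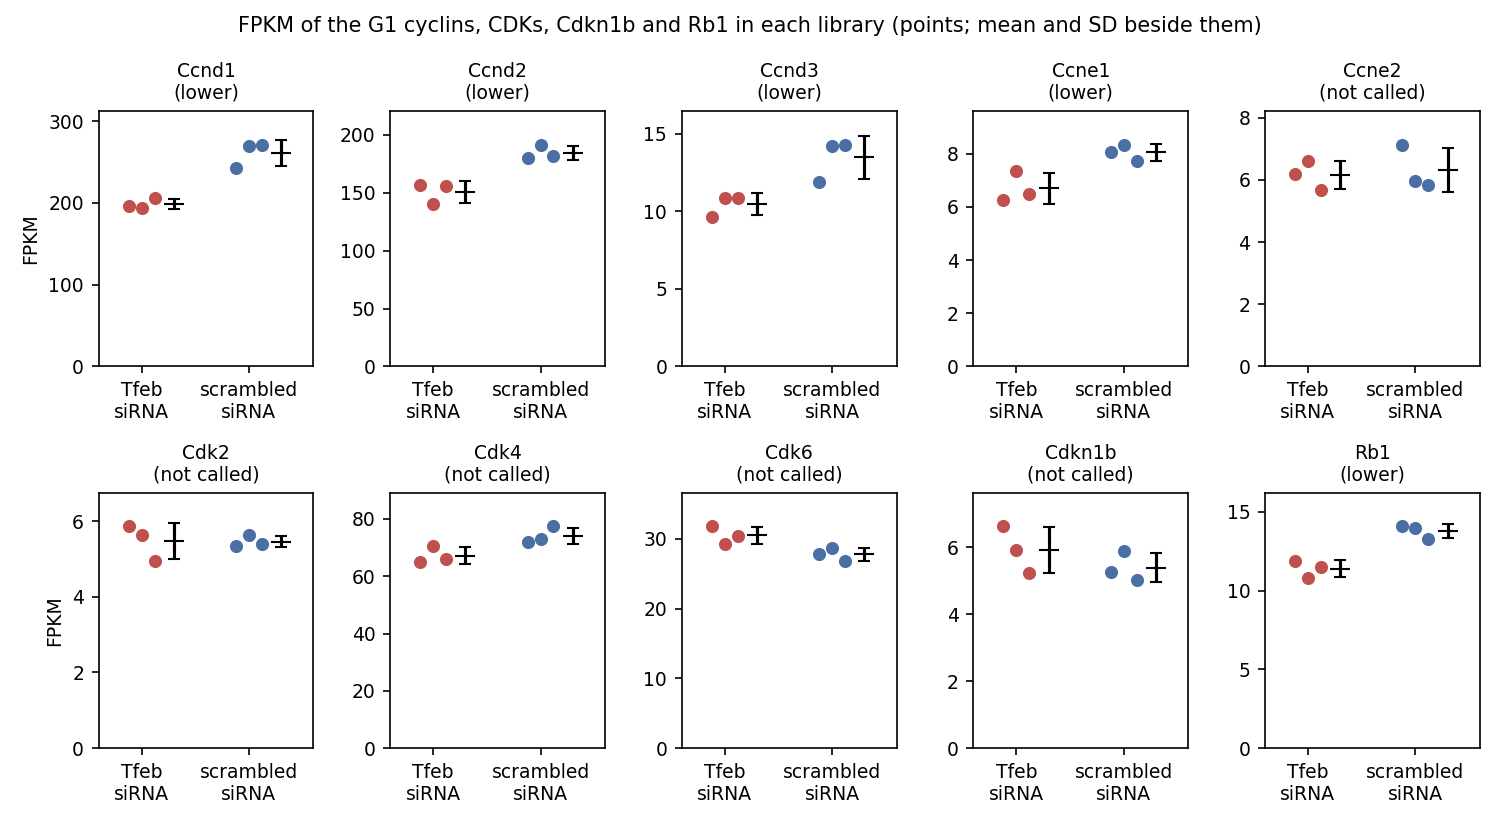
FPKM (vertical axis, from 0, its own scale in each panel) of the 10 genes in the 3 Tfeb siRNA libraries (left, red) and the 3 scrambled siRNA libraries (right, blue), with the mean and SD in black beside the points. In Ccnd1, Ccnd2, Ccnd3, Ccne1, Rb1 and Cdk4 every Tfeb siRNA point lies below every scrambled siRNA point, and in Cdk6 every one lies above.

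Cyclins D1 and D2 had the highest levels of the list. Over the 6 libraries Ccnd1 averaged 230 ± 36.1 FPKM (SD, n = 6) and ranked 157 among the 12257 tested genes, and Ccnd2 averaged 168 ± 19.7 FPKM and ranked 230. Next came Cdk4 with 70.6 ± 4.63 FPKM and Cdk6 with 29.1 ± 1.77 FPKM. The ranges of these 4 genes over the libraries did not overlap with one another. Rb1 (12.6 ± 1.37 FPKM) and Ccnd3 (12.0 ± 1.92 FPKM) had overlapping ranges. Below them lay Ccne1 (7.37 ± 0.846 FPKM), Ccne2 (6.23 ± 0.540 FPKM), Cdkn1b (5.66 ± 0.595 FPKM) and Cdk2 (5.47 ± 0.311 FPKM), and neighbours in this order overlapped. Cdkn1b, the inhibitor, was thus among the 2 genes of the list with the lowest levels.

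Ccnd1 encodes cyclin D1 (ENSMUSG00000070348, mm10 chromosome 7, 144929931 to 144939925, minus strand). It had 196, 194 and 206 FPKM in Tfeb siRNA replicates 1, 2 and 3 and 243, 270 and 271 FPKM in scrambled siRNA replicates 1, 2 and 3. The groups did not overlap, and the lowest scrambled siRNA library was replicate 1. The fitted change of Ccnd1 was -0.39 on the log2 scale (SE 0.06, limma adjusted p = 0.00416), a level 24.1% lower, from 53743 reads in the Tfeb siRNA group and 76837 in the scrambled siRNA group. The call was kept under all 14 alternative settings (highest adjusted p = 0.0208). Exons of Oraov1 on the opposite strand cover 23.4% of the exonic bases of Ccnd1 in GENCODE M21, and since it is not known whether counting used strand, reads there cannot be assigned to either gene with certainty. Oraov1 itself had a mean of 3.50 FPKM and a log2 fold change of -0.10 (limma adjusted p = 0.531).

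Ccnd2, cyclin D2 (ENSMUSG00000000184, chromosome 6, 127125162 to 127152193, minus strand), had 156, 140 and 156 FPKM in Tfeb siRNA replicates 1, 2 and 3 and 180, 191 and 181 FPKM in scrambled siRNA replicates 1, 2 and 3. Again the groups did not overlap, with the lowest value in Tfeb siRNA replicate 2. Ccnd2 differed by a log2 fold change of -0.29 (SE 0.06, limma adjusted p = 0.0127), and the call was kept under all 14 alternatives (highest adjusted p = 0.0455). Ccnd3, cyclin D3 (ENSMUSG00000034165, chromosome 17, 47505051 to 47599691, plus strand), had 9.67, 10.9 and 10.9 FPKM in Tfeb siRNA replicates 1, 2 and 3 and 11.9, 14.2 and 14.3 FPKM in scrambled siRNA replicates 1, 2 and 3. Replicate 1 was the lowest library of both groups. Ccnd3 fell by 0.35 on the log2 scale (SE 0.09, limma adjusted p = 0.0220). The call of Ccnd3 was lost without Tfeb siRNA replicate 1 (adjusted p = 0.0636), without scrambled siRNA replicate 2 (0.0690) or replicate 3 (0.0747), and with no filter on low values (0.0567). Exons of Bysl on the opposite strand cover 4.11% of the exonic bases of Ccnd3, and Bysl rose (log2 fold change 0.52, limma adjusted p = 0.00360).

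Taken as a sum, the D-type cyclins came to 362, 345 and 373 FPKM in Tfeb siRNA replicates 1, 2 and 3 and to 435, 476 and 467 FPKM in scrambled siRNA replicates 1, 2 and 3. The mean was 360 ± 14.0 FPKM in Tfeb siRNA libraries and 459 ± 21.5 FPKM in scrambled siRNA libraries (SD, n = 3 each), or 21.6% lower. Its make-up was also compared: Ccnd1 gave 55.2 ± 1.07% of it in Tfeb siRNA libraries and 56.9 ± 1.12% in scrambled siRNA libraries, Ccnd2 gave 41.9 ± 1.31% in Tfeb siRNA libraries and 40.2 ± 1.28% in scrambled siRNA libraries, and Ccnd3 gave 2.91 ± 0.239% in Tfeb siRNA libraries and 2.93 ± 0.173% in scrambled siRNA libraries. All 3 shares overlapped between the groups.

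The 3 D-type cyclins also shared a word in their longest annotated 3' UTRs that the other 7 genes lack. Earlier work on these same fold changes had ranked 8 heptamers by the change of the genes that hold them, 4 commoner in genes that fell, GGCCATG among them, and 4 commoner in genes that rose. The seed of an siRNA strand (its bases 2 to 8) can pair with matching words in the 3' UTRs of unintended transcripts and lower them; no sequence of the siRNAs used was at hand. The sites of GGCCATG are shown with their surroundings, 5' to 3', from the GENCODE M21 transcripts, with the heptamer in capitals; counting from the first base after the stop codon it starts at base 1377 of 2676 in Ccnd1, 781 of 5173 in Ccnd2 and 244 of 915 in Ccnd3.
Ccnd1: agaaggtttagGGCCATGtctgagagatt
Ccnd2: aattcgctatgGGCCATGaccaaaacgca
Ccnd3: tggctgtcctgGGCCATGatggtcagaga
In Ccnd2 and Ccnd3 the next base is an A, so that they also hold another of the falling words, GCCATGA. Among the 10474 tested genes with a 3' UTR of 7 bases or more, 13.5% hold GGCCATG, and 25.1% of those were called lower against 16.7% of the genes without it. Of the 4 falling heptamers, Cdk6 holds TACATAA at 2 places and was not lower, while Ccne1 and Rb1 hold none and fell. Altogether 4 of the 10 genes hold a falling heptamer, as do 33.5% of the genes searched, and 1, Cdkn1b, holds a rising one (TCGGAGA). The words were picked on the same libraries, so these matches describe the genes and are no independent evidence, and the part of seed pairing in the change of the D-type cyclins was not tested.

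The kinases that partner the D-type cyclins lay on either side of 0 and neither passed the test. Cdk4 (ENSMUSG00000006728, chromosome 10, 127063534 to 127067920, plus strand) had 65.0, 70.5 and 65.9 FPKM in Tfeb siRNA replicates 1, 2 and 3 and 72.0, 73.0 and 77.4 FPKM in scrambled siRNA replicates 1, 2 and 3. Its groups did not overlap, but the gap between the highest Tfeb siRNA and the lowest scrambled siRNA library was small. The log2 fold change was -0.14 (95% interval -0.27 to -0.01, limma adjusted p = 0.0906; range over the alternatives 0.0569 to 0.257). Cdk6 (ENSMUSG00000040274, chromosome 5, 3341485 to 3531008, plus strand) had 31.8, 29.3 and 30.4 FPKM in Tfeb siRNA replicates 1, 2 and 3 and 27.8, 28.7 and 26.9 FPKM in scrambled siRNA replicates 1, 2 and 3. Here all Tfeb siRNA libraries were above all scrambled siRNA libraries, with a log2 fold change of 0.13 (95% interval 0.01 to 0.26, limma adjusted p = 0.0971; range 0.0736 to 0.258). Of the 10 genes, 7 had groups that did not overlap (48.7% of tested genes), 6 with Tfeb siRNA lower (23.5% of tested genes) and 1, Cdk6, with Tfeb siRNA higher (25.3%).

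Cdk6 made up 32.8%, 29.4% and 31.5% of the summed FPKM of both kinases in Tfeb siRNA replicates 1, 2 and 3 and 27.8%, 28.2% and 25.8% in scrambled siRNA replicates 1, 2 and 3. These shares did not overlap between the groups. That follows from the separation of Cdk4 and Cdk6 in opposite directions and is no further result. The summed level did overlap (97.6 ± 1.93 FPKM in Tfeb siRNA libraries and 102 ± 2.26 FPKM in scrambled siRNA libraries, SD, n = 3 each). Exons of Tspan31 on the opposite strand cover 19.7% of the exonic bases of Cdk4; Tspan31 had a mean of 26.9 FPKM and a log2 fold change of -0.06 (limma adjusted p = 0.346), so a part of the level of Cdk4 is uncertain.

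The promoter of Cdk4 is shown because TFEB and its relatives bind the E-box CACGTG within a longer consensus, as do MYC and other factors of that class. The window runs from 250 bases before to 50 after the start of the gene (RefSeq, GRCm38.p6, chr10:127063285-127063584, plus strand), with each CACGTG in capitals.
Cdk4: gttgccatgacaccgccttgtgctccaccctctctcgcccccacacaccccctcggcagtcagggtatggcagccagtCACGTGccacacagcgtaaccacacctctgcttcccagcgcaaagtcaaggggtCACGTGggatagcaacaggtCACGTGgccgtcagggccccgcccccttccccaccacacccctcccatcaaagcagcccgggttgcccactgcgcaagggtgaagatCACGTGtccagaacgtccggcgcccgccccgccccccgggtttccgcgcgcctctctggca
The 4 E-boxes begin 172, 118, 98 and 11 bases before the start. CACGTG reads the same on both strands. Of 10836 promoters of tested genes 10.1% hold it at least once and only 4 hold it 4 times or more. Cdk6 holds 1, which begins 220 bases before its RefSeq start. That window (chromosome 5, 3343643 to 3343942) lies inside the gene as placed above, whose start is at 3341485. The promoters of Ccnd3 (2 listed), Ccne1, Cdk2 and Cdkn1b hold none. Promoters of Ccnd1, Ccnd2, Ccne2 and Rb1 were not used here. The E2F words TTTGGCGC and TTTCGCGC, searched on both strands and found in 1.58% of these promoters, are in none of the 7 windows of the 6 genes. A match in sequence does not show that a factor binds, and the absence of one says only that these letters are not in the window.

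**Figure D2:**
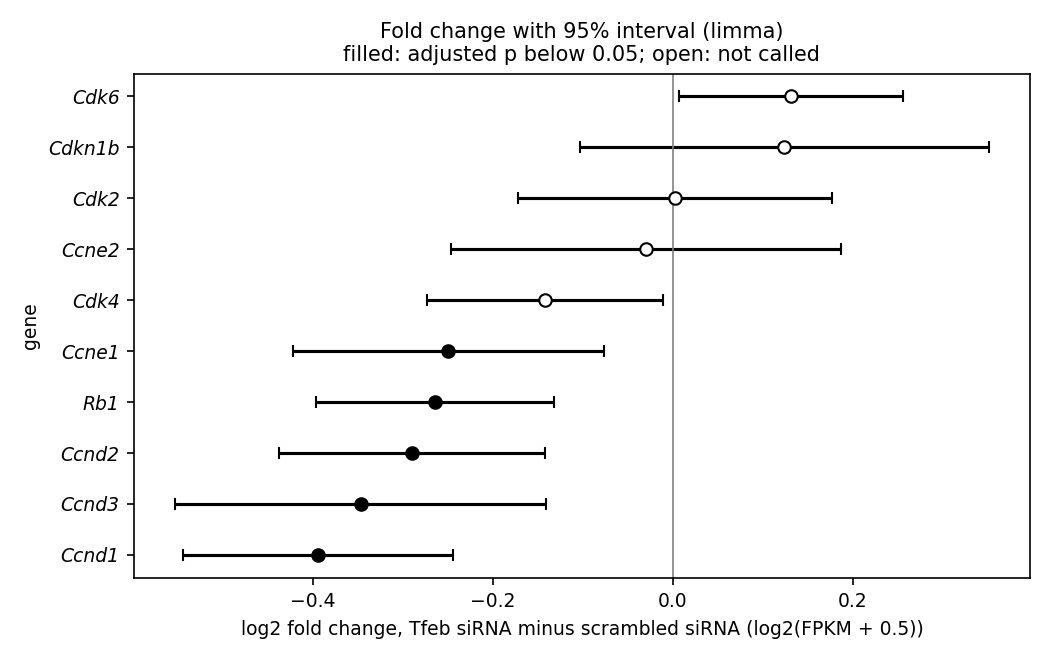
Log2 fold change (horizontal axis, Tfeb siRNA minus scrambled siRNA on the log2(FPKM + 0.5) scale) of each gene with its 95% interval from limma; filled points passed an adjusted p of 0.05. The 5 filled points run from -0.39 (Ccnd1) to -0.25 (Ccne1), and the open points run from -0.14 (Cdk4) to 0.13 (Cdk6).

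Among the cyclins E, which bind CDK2 at the end of G1, E1 was called lower and E2 was not. Ccne1 (ENSMUSG00000002068, chromosome 7, 38097984 to 38107534, minus strand) had 6.26, 7.36 and 6.47 FPKM in Tfeb siRNA replicates 1, 2 and 3 and 8.08, 8.33 and 7.73 FPKM in scrambled siRNA replicates 1, 2 and 3. The groups did not overlap, although Tfeb siRNA replicate 2 came close to the scrambled siRNA libraries. Ccne1 fell by 0.25 on the log2 scale (SE 0.07, limma adjusted p = 0.0370). This is the weakest of the 5 calls: it was lost with no filter on low values (0.0801) and without Tfeb siRNA replicate 1 (0.102) or 3 (0.104) or scrambled siRNA replicate 1 (0.0815), 2 (0.107) or 3 (0.0666), and held only without Tfeb siRNA replicate 2 (0.0210) among the fits that leave out a library.

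Ccne2 (ENSMUSG00000028212, chromosome 4, 11191351 to 11204779, plus strand) had 6.19, 6.60 and 5.69 FPKM in Tfeb siRNA replicates 1, 2 and 3 and 7.13, 5.96 and 5.84 FPKM in scrambled siRNA replicates 1, 2 and 3. The groups overlapped, with the highest value in scrambled siRNA replicate 1. Its log2 fold change was -0.03 (95% interval -0.25 to 0.19, limma adjusted p = 0.830). The difference between the changes of Ccne1 and Ccne2 was not tested; Ccne1 gave 52.1 ± 1.58% of their sum in Tfeb siRNA libraries and 56.1 ± 2.68% in scrambled siRNA libraries, with overlapping ranges. Exons of Ints8 on the opposite strand cover 17.4% of the exonic bases of Ccne2 (Ints8 log2 fold change 0.10, limma adjusted p = 0.248).

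Cdk2 (ENSMUSG00000025358, chromosome 10, 128697939 to 128705031, minus strand), the kinase that cyclin E activates, had 5.86, 5.62 and 4.95 FPKM in Tfeb siRNA replicates 1, 2 and 3 and 5.35, 5.62 and 5.40 FPKM in scrambled siRNA replicates 1, 2 and 3. The scrambled siRNA values lay inside the Tfeb siRNA range. Its log2 fold change was 0.00 (estimate 0.0023, 95% interval -0.17 to 0.18, limma adjusted p = 0.985), and its sign changed among the alternatives, as did that of Ccne2.

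Cdkn1b, which encodes the inhibitor p27 (ENSMUSG00000003031, chromosome 6, 134920401 to 134925513, plus strand), had 6.62, 5.92 and 5.24 FPKM in Tfeb siRNA replicates 1, 2 and 3 and 5.26, 5.87 and 5.02 FPKM in scrambled siRNA replicates 1, 2 and 3. The ranges overlapped, with Tfeb siRNA replicate 1 the highest. The log2 fold change was 0.12 (95% interval -0.10 to 0.35, limma adjusted p = 0.362). The ratio of the summed D-type cyclins to Cdkn1b was 61.3 ± 8.65 in Tfeb siRNA libraries and 85.5 ± 6.46 in scrambled siRNA libraries (SD, n = 3 each), and the groups did not overlap (54.7 to 71.1 in Tfeb siRNA libraries and 81.0 to 93.0 in scrambled siRNA libraries). The D-type sum alone already separated the groups and Cdkn1b did not, so this ratio is no further result.

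Rb1, the substrate of these kinases and the brake on E2F (ENSMUSG00000022105, chromosome 14, 73183673 to 73325822, minus strand), had 11.9, 10.8 and 11.5 FPKM in Tfeb siRNA replicates 1, 2 and 3 and 14.1, 14.0 and 13.3 FPKM in scrambled siRNA replicates 1, 2 and 3. The groups did not overlap, with a spread within each that was small beside the gap (SD 0.531 FPKM in Tfeb siRNA libraries and 0.418 FPKM in scrambled siRNA libraries). Rb1 had a log2 fold change of -0.26 (SE 0.06, limma adjusted p = 0.0118), and the call was kept under all 14 alternatives (highest adjusted p = 0.0415). Exons of Rcbtb2 and Lpar6, which lie on the opposite strand, cover 8.11% and 6.78% of the exonic bases of Rb1, and neither was called (limma adjusted p = 0.599 for Rcbtb2 and 0.472 for Lpar6).

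**Figure D3:**
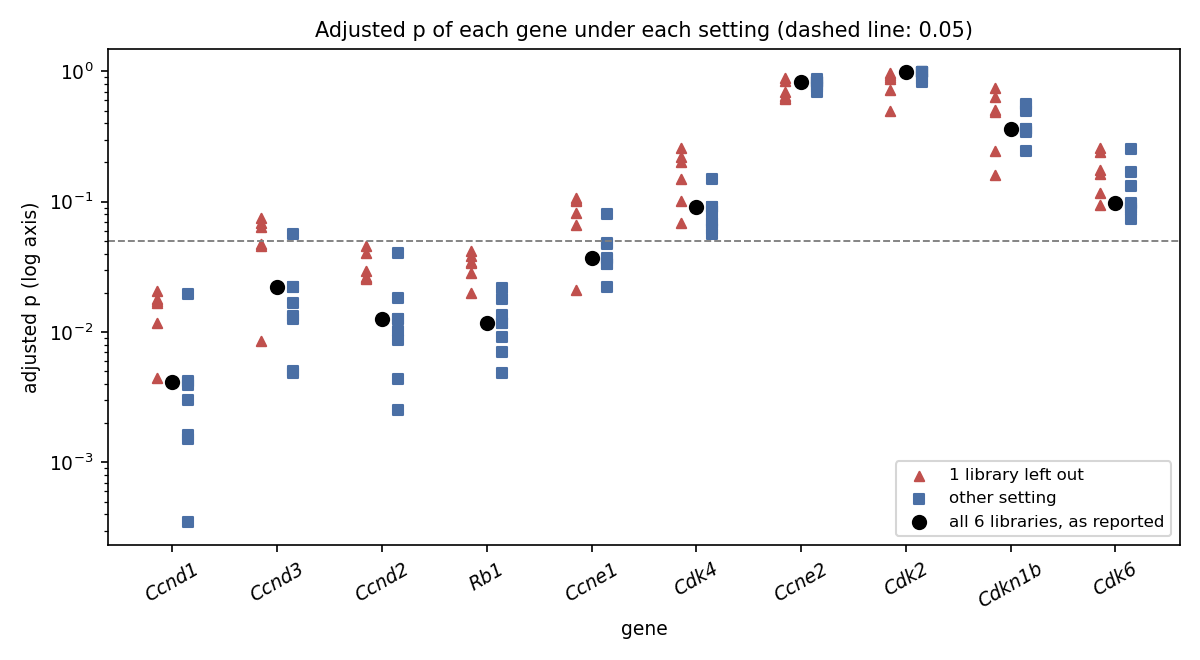
Adjusted p (vertical log axis) of each of the 10 genes with all 6 libraries (black), with a library left out (triangles) and under other settings (squares). All symbols of Ccnd1, Ccnd2 and Rb1 lie below 0.05, those of Ccnd3 and Ccne1 lie on either side, and those of Cdk4, Ccne2, Cdk2, Cdkn1b and Cdk6 all lie above.

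Several of these transcripts are textbook targets of microRNAs, whose sites were looked up as a shared feature; mature microRNAs were not measured. The longest 3' UTRs ranged from 531 bases in Ccne1 to 10217 bases in Cdk6, against a median of 1377 bases among the genes searched. The heptamer that pairs with the seed of miR-16, a family known for holding back G1, was found in 5 of the 10 genes (Ccnd1, Ccnd2, Ccnd3, Ccne1 and Cdk6), against 28.2% of the genes searched. The mature sequence from RefSeq has its seed (bases 2 to 8) in capitals, and the target sites have the matching heptamer in capitals.
mmu-miR-16-5p: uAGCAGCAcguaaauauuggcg
Ccnd1: gcatgccaccaTGCTGCTggcccgggggg
Ccnd2: gtttcacggtgTGCTGCTattttagaaac
Ccnd3: gttgctttgctTGCTGCTtagcttctgtg
Ccne1: tattttgtaagTGCTGCTatgtctatcaa
Of the 5 holders 4 fell, and Cdk6, with 3 matches, did not. The Cdk6 matches that start at bases 5177 and 5180 of its 3' UTR overlap, so they are not separate sites. Among all genes searched the word went with little difference: 18.5% of its holders were called lower, and 17.6% of the rest. The let-7 heptamer (CTACCTC) was in 1 of the 10 genes, Cdk4 (11.9% of the genes searched), and that of miR-34 (CACTGCC) in 2, Ccne2 and Cdk6 (19.1%). That of miR-29 (TGGTGCT) was in 3, Ccnd2, Cdk2 and Cdk6 (17.4%).

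In 7 lists of other cell cycle genes, which cover G1 regulators and S phase and mitosis markers, 75 of 77 symbols were in the table (Cdk3 and Skp1 were not matched) and 72 were tested, of which 11 rose, 9 fell and 52 did not pass (16.9% of all tested genes were called higher and 16.4% lower), with a median log2 fold change of 0.03. With TPM the split was 4 higher and 10 lower, beside 1688 higher and 2275 lower among all 15394 genes tested that way. With plain scaling by total reads it was 8 higher and 11 lower, beside 1778 higher and 2301 lower among 12273. Among the 5 other CDK inhibitors tested 0 rose and 0 fell by limma; at an unadjusted p below 0.05 there were 0 higher and 2 lower, and voom called 1 lower. Cdkn2a, whose locus encodes p16 and p19ARF, had 79.0 ± 12.4 FPKM in Tfeb siRNA libraries and 107 ± 17.1 FPKM in scrambled siRNA libraries (SD, n = 3 each; log2 fold change -0.44, limma adjusted p = 0.0609). It passed with the replicate number as a block (adjusted p = 0.00177), with voom (0.0171), TPM (0.0362), plain scaling by total reads (0.0416) or a filter at 5 FPKM (0.0477), and without scrambled siRNA replicate 1 (0.0263), and the highest value among the alternatives was 0.167. Cdkn2c, which encodes p18, had 8.57 ± 0.966 FPKM in Tfeb siRNA libraries and 10.0 ± 0.197 FPKM in scrambled siRNA libraries (limma adjusted p = 0.0812; 0.0444 with the block, and 0.0221 to 0.197 over all alternatives). Cdkn1a, which encodes p21 and was singled out after its level was seen, stood at 367 ± 31.5 FPKM in Tfeb siRNA libraries and 412 ± 44.9 FPKM in scrambled siRNA libraries (limma adjusted p = 0.244). Its level was thus far above the 5.93 ± 0.687 FPKM of Cdkn1b in Tfeb siRNA libraries and its 5.39 ± 0.438 FPKM in scrambled siRNA libraries.

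Of 11 tested pocket protein, E2F and DP genes, 2 rose and 3 fell, beside 16.9% of all tested genes called higher and 16.4% called lower. Rbl2, the relative of RB1 also called p130, fell with Rb1, to 8.17 ± 0.205 FPKM in Tfeb siRNA libraries, against 10.8 ± 0.687 FPKM in scrambled siRNA libraries (limma log2 fold change -0.39, adjusted p = 0.00398). E2f5, a repressive E2F, fell to 8.89 ± 0.00476 FPKM in Tfeb siRNA libraries, against 12.4 ± 0.327 FPKM in scrambled siRNA libraries (log2 fold change -0.46, limma adjusted p = 0.000915), and Tfdp2, a dimer partner of E2Fs, also fell (log2 fold change -0.44, limma adjusted p = 0.00663). E2f4, another E2F that works mainly in repression, rose to 32.2 ± 1.003 FPKM in Tfeb siRNA libraries, against 26.1 ± 1.73 FPKM in scrambled siRNA libraries (limma adjusted p = 0.0108). E2f3 rose by a log2 fold change of 0.24 (limma adjusted p = 0.0363), a call lost without 5 of the 6 libraries in turn (adjusted p 0.0623 without Tfeb siRNA replicate 1, 0.0821 without 2, 0.106 without 3, 0.0884 without scrambled siRNA replicate 1 and 0.115 without 3).

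Of 20 genes of S phase and mitosis 4 rose, 0 fell and 16 did not pass, beside 16.9% of all tested genes called higher; at an unadjusted p below 0.05 there were 5 higher and 0 lower, and voom likewise called 5 higher and 0 lower. The count of 4 fell to 1 with TPM, without Tfeb siRNA replicate 1 or 2 or without scrambled siRNA replicate 3, and to 2 with no filter or without scrambled siRNA replicate 1, and was 6 with the replicate number as a block. The count called higher among all tested genes moved too. It was 2075 in the main fit, 1688 of 15394 with TPM and 1607 of 29171 with no filter. With a library left out it was 1412 to 1703, and with the block 2542. Ccna2, cyclin A2, which follows cyclin E at the CDK2 kinase, had 13.2 ± 1.002 FPKM in Tfeb siRNA libraries and 10.5 ± 0.467 FPKM in scrambled siRNA libraries (log2 fold change 0.31, SE 0.07, limma adjusted p = 0.0133), and its call was kept under all 14 alternatives. Mki67, the proliferation marker Ki-67, had 16.5 ± 1.91 FPKM in Tfeb siRNA libraries and 12.7 ± 1.02 FPKM in scrambled siRNA libraries (limma adjusted p = 0.0254). Top2a, a topoisomerase of dividing cells (limma adjusted p = 0.0200), and the mitotic kinase gene Aurkb (0.0468) also rose. These 3 calls were less firm. Mki67 was lost without Tfeb siRNA replicate 1 (0.0680) or 2 (0.0731) or scrambled siRNA replicate 1 (0.0671) or 3 (0.0810), Top2a without Tfeb siRNA replicate 1 (0.0594) or 2 (0.0622) or scrambled siRNA replicate 3 (0.0695), and Aurkb without any library except scrambled siRNA replicate 2 (0.0539 to 0.139). With TPM all 3 were lost (0.0571 for Mki67, 0.0602 for Top2a and 0.0743 for Aurkb). The median log2 fold change of this list was 0.13, against 0.02 over all tested genes.

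**Figure D4:**
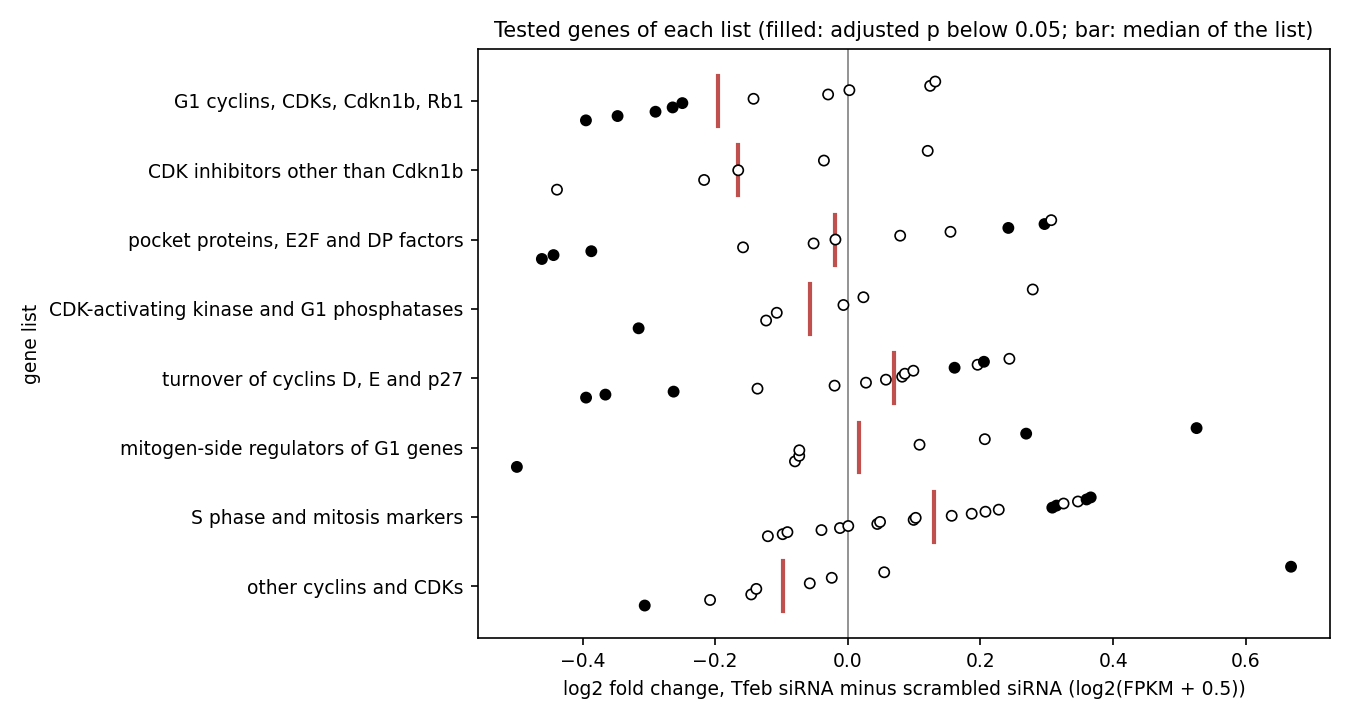
Log2 fold change (horizontal axis, Tfeb siRNA minus scrambled siRNA on the log2(FPKM + 0.5) scale) of every tested gene in each list (rows), filled where the adjusted p was below 0.05, with the median of each list as a red bar. The median is -0.20 in the top row, the 10 genes described here, and 0.13 for S phase and mitosis markers.

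Genes that act on cyclins D, cyclins E and p27 after transcription were also mixed. The counts of the lists in this paragraph stand beside 16.9% of all tested genes called higher and 16.4% called lower. Of 14 tested, 2 rose and 3 fell: Ddb1 (limma adjusted p = 0.0370) and Cul1 (0.0462), parts of ubiquitin ligases, were higher, while Cul4b (0.00622), a ligase scaffold, Fbxo4 (0.0119), described as an F-box protein for cyclin D1, and Rnf123 (0.0158), a ligase subunit for p27, were lower. Leaving out a library ended the calls of Ddb1 (without any but Tfeb siRNA replicate 2, 0.0667 to 0.116), Cul1 (without any but scrambled siRNA replicate 1, 0.0698 to 0.153) and Rnf123 (without scrambled siRNA replicate 3, 0.0536). Of 8 upstream signal genes 2 rose and 1 fell. Akt2, a kinase of the insulin pathway, fell to 6.71 ± 0.436 FPKM in Tfeb siRNA libraries, against 9.69 ± 0.549 FPKM in scrambled siRNA libraries (limma adjusted p = 0.00240). Foxo1, a transcription factor known to activate Cdkn1b, was called higher (limma adjusted p = 0.0453) but not with the replicate number as a block (0.0510), nor without any library but Tfeb siRNA replicate 2 (0.0749 to 0.123). Wee1, which inhibits CDKs by phosphorylation, was 1 of 6 genes of the CDK-activating kinase and phosphatase list and the only one called, at 6.72 ± 0.242 FPKM in Tfeb siRNA libraries and 8.48 ± 0.292 FPKM in scrambled siRNA libraries (limma adjusted p = 0.00619). Of 8 other cyclins and CDKs tested, the cyclin G genes parted: Ccng2 rose to 21.7 ± 1.67 FPKM in Tfeb siRNA libraries, against 13.4 ± 0.671 FPKM in scrambled siRNA libraries (limma adjusted p = 0.000986), and Ccng1, a p53 target, fell to 265 ± 12.4 FPKM in Tfeb siRNA libraries, against 327 ± 5.40 FPKM in scrambled siRNA libraries (limma adjusted p = 0.00703).

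Likeness of pattern was measured as the Euclidean distance between log2(FPKM + 0.5) profiles over the 6 libraries, each centred on its own mean, so that 0 is an identical pattern. The nearest genes were Tspan9, Slc26a10 and Aimp2 to Ccnd1 (0.056, 0.068 and 0.069), Psph, Spcs3 and Rala to Ccnd2 (0.049, 0.054 and 0.056), and Adgra2, Rps6ka1 and Glud1 to Ccnd3 (0.032, 0.064 and 0.075). Car13, Deaf1 and Srp54 were nearest to Ccne1 (0.056, 0.072 and 0.084), and Tax1bp1, Rhobtb3 and Copa to Rb1 (0.024, 0.026 and 0.042). Within the list, Rb1 and Ccnd2 were the closest pair among those measured (0.096), followed by Ccnd1 and Ccnd3 (0.16).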

How the data were processed

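The deposited table held FPKM values made by the authors, 1 column per library, with gene positions and lengths per the file headers (0 columns of other samples). Per the submitters' processing notes the genome was mm10; the aligner, counter, annotation and use of strand were not given in the sources used here. In each library, 100% of values above 0 became whole multiples of 1 step when multiplied by gene length (tolerance 1e-06), which gave the derived reads. The depth implied by this step was 17931815.5 in Tfeb siRNA replicate 1, against 18062898 derived reads. In every library it equalled the geometric mean of the totals times a size factor. The size factor is the median over genes of a library's reads relative to the gene's geometric mean. Plain scaling by total reads uses the total instead.

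Groups and replicate numbers came from the titles. Whether replicates were separate cultures is not stated, so the p-values reflect the spread of these libraries alone, which may be technical. Tfeb siRNA was compared with scrambled siRNA on log2(FPKM + 0.5) by limma 3.58.1 (R 4.3.3). A mean of at least 1 FPKM was required (12257 of 53715 genes), with a mean-variance trend, two-sided, and Benjamini-Hochberg adjustment over all of them; every adjusted p is from this model unless another is named. Fold changes on this scale understate changes of low genes. The script was tested on simulated data. Exact permutation of 3 against 3 libraries cannot go below p = 0.1. Every pair of libraries differed beyond sampling noise (chi-square per gene 4.73 or more).

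Residuals of same-numbered libraries correlated at 0.382, 0.129 and 0.166, which meets the rule set for pairing (each over 0.1). Unlike-numbered replicates 2 and 3 came close (0.106 and 0.0996), and the titles do not say what a number shares. The reported model has no block; the block is an alternative. GENCODE M21 has the same start and end as the table for all 10 genes and served for 3' UTRs and overlaps. Sequences come from it and RefSeq. The members and gene lists were chosen with earlier results of these data known. In each list the 2 called genes with the largest increase and the 2 with the largest decrease were named, or else the 2 with the smallest p; Rbl2, Rnf123, Ccna2 and Top2a were named after their values were seen. Some genes of the lists are not reported here by name.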

Additional observations from a re-analysis of the deposited data

How the results depend on the processing

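Of the 5 genes called lower, Ccnd1, Ccnd2 and Rb1 kept their call under all 14 alternatives: pseudocounts of 0.1 and 1, no filter, a filter at 5 FPKM, TPM, a plain scaling by total reads, a replicate block, voom on derived reads and each of the 6 libraries left out. The count of members called lower was 5 with all libraries, 3 with no filter, and 3 to 5 with a library left out; the genes whose calls were lost were Ccnd3 and Ccne1. The count called higher was 0 throughout. The 72 listed genes had 11 called higher, against 5 with no filter, 4 with TPM and 4 to 8 with a library left out, and 9 called lower. Among all tested genes 1607 were called higher and 1844 lower of 29171 with no filter, and 1688 and 2275 of 15394 with TPM. With a library left out these counts were 1412 to 1703 higher and 1371 to 1720 lower. The calls of E2f3, Ddb1, Cul1 and Foxo1 were lost with TPM (0.0698, 0.0680, 0.162 and 0.0653) and with no filter (0.0761, 0.249, 0.0626 and 0.105), and those of Mki67 and Aurkb with no filter (0.0666 and 0.118). With plain scaling by total reads Cul1 (0.101), Foxo1 (0.0551) and Aurkb (0.0603) were lost. The replicate block kept the 5 members called lower, with adjusted p of 0.0221 for Ccne1 and 0.00484 for Ccnd3, and gave 2542 higher and 2386 lower genes in all, against 2075 and 2005 without it. Among the members, Tfeb and the pathway list genes refitted with the block and named here, it changed the calls of Foxo1, Cdkn2a and Cdkn2c and no other. Plain scaling by total reads and voom were chosen after seeing the data; the planned count models were not run, since the table holds no counts. The median log2 fold change of all genes lay between -0.01 and 0.02 under every setting. The cause of each lost call was not tested.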

Other observations

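The seed heptamer of miR-221 and miR-222, which are known to hold back Cdkn1b in other cells, was found at 1 place in the 3' UTR of Cdkn1b and at 2 in that of Ccnd2, against 11.4% of the genes searched that hold it.
mmu-miR-222-3p: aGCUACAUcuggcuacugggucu
mmu-miR-221-3p: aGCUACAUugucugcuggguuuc
Cdkn1b: aaaagcattggATGTAGCattgcgcaatt
Capitals mark the seed (bases 2 to 8) in each microRNA and the heptamer in the site. The table lists the hairpin genes, not the mature microRNAs. Mir222 had 3, 2 and 5 reads in Tfeb siRNA replicates 1, 2 and 3 and 0 in each scrambled siRNA library, and Mir221 had 5, 4 and 10 reads in Tfeb siRNA replicates 1, 2 and 3 and 1, 12 and 8 reads in scrambled siRNA replicates 1, 2 and 3. Both were singled out after their values were seen, and the reads are too few to give a fold.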
